A study of Mus musculus with 14 samples.

Results

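The Toll-like receptor genes Tlr1, Tlr2, Tlr3, Tlr4, Tlr6, Tlr7, Tlr8, Tlr9 and Tlr13 and the co-receptor gene Cd14 were followed in mouse tumours as 10 of the 37409 genes with deposited read counts. They were chosen by gene symbol, all 10 were found, and all 10 passed the filter on low counts, as did 17141 genes in all. RNA was sequenced from subcutaneous tumours that C57BL/6 mice carried after inoculation with B16F10, a pigmented melanoma line. The day 0 group (n = 3) was untreated. The other groups were taken at day 7 after an injection into tumours of about 150 mm3. The D5W group (n = 3) received 5% dextrose in water, and the siNeg (n = 4) and siPD-L1 (n = 4) groups both received 2E'/PTX, with siNeg or with siPD-L1. The polymer that the series title calls immunoactive is taken to be 2E', PTX to be paclitaxel, which stabilises microtubules, siNeg a negative-control siRNA and siPD-L1 an siRNA to PD-L1. No group in these libraries was untreated at day 7, and none received the polymer and paclitaxel without an siRNA, so the 7 days, the injection and its content cannot be told apart against day 0. The mice's age and sex are not stated, nor is it stated that each library came from a separate mouse, so p-values measure only the spread between these libraries.

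Library totals ran from 60.2 M to 85.9 M counts. The labels name CT26, a colon carcinoma line, as the cell type, while their protocol names B16F10. Over the 14 libraries the melanin enzyme gene Dct had a median of 7915 CPM (counts per 1 M counts, scaled with TMM factors) and the epithelial gene Epcam a median of 0.052 CPM. Of the other intestinal epithelium genes listed, Cdx1, Cdx2, Krt20 and Krt8 had at most 0.114 CPM. Cdh1 and Vil1 were detected, with medians of 2.06 and 3.84 CPM. On the first principal component of the most variable tested genes, D5W replicate 3 (47.4) and siPD-L1 replicate 1 (28.1) lay at one end. The day 0 libraries (-37.0 to -26.3) lay at the other.

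Toll-like receptors are membrane proteins that bind molecules shared by many microbes, and some molecules of damaged tissue. Tlr4 binds lipopolysaccharide with the protein encoded by Ly96, after Cd14 has handed it over. Tlr2 acts in pairs with Tlr1 or Tlr6 and binds bacterial lipoproteins. Tlr3 binds double-stranded RNA, Tlr7 and Tlr8 single-stranded RNA, Tlr9 unmethylated CpG DNA and Tlr13 bacterial ribosomal RNA, all inside endosomes. Their adaptor proteins lead to NF-kB and interferon regulatory factors, which switch on genes of cytokines, chemokines and their own inhibitors. In tumours these receptors are best known from macrophages, dendritic cells and neutrophils, and some tumour cells express them too.

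Levels between genes were compared as CPM per kb of exon. Tlr4 had the highest level per kb of the receptors in each of the 14 libraries, between 7.31 and 14.2 with a median of 10.96. Below it in each library came Tlr3 and then Tlr2, with medians of 3.67 and 1.05 per kb. Tlr4 made up 49.5% to 68.7% of the summed level per kb of the 9 receptors, and Tlr3 16.5% to 25.0%. Tlr13, Tlr1, Tlr7, Tlr8, Tlr9 and Tlr6 followed, with medians falling from 0.669 to 0.111 per kb. Among neighbouring receptors in this order, the ranges over the 14 libraries did not meet for Tlr4 and Tlr3 or for Tlr3 and Tlr2, and met for all lower neighbours. Cd14 had a median of 7.07 per kb, between Tlr4 and Tlr3, and its range met those of both. It was below Tlr4 in 10 of 14 libraries and above Tlr3 in 10 of 14. Cd14 lay below Tlr3 in each day 0 library and in siPD-L1 replicate 3, and its place varied within each day 7 group.

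**Figure D1:**
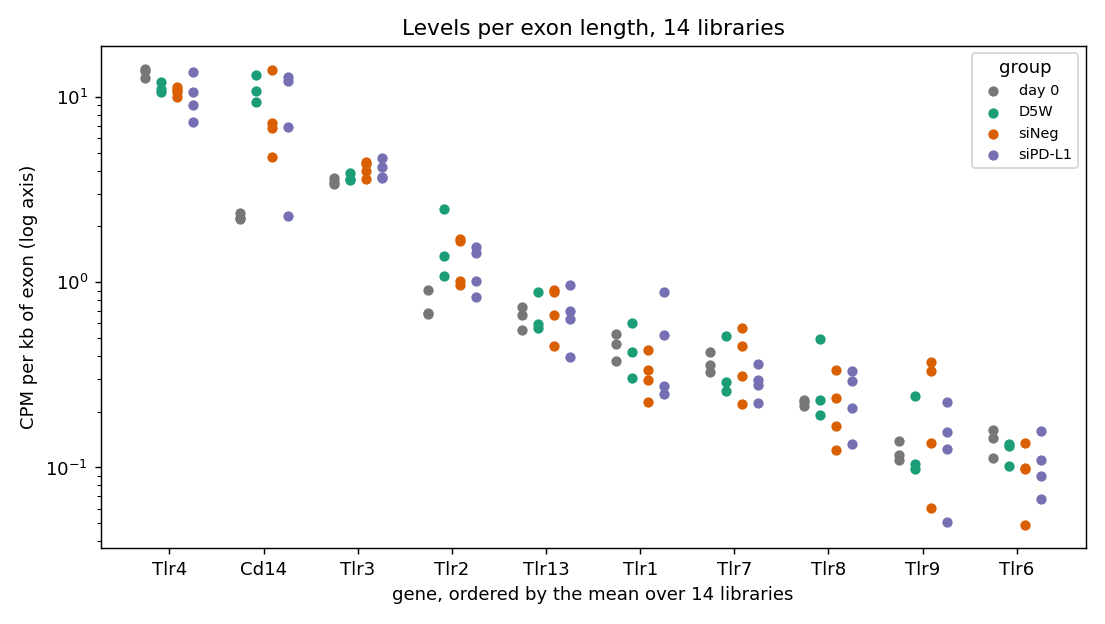
Level of each gene in CPM per kb of exon, on a log axis, with 1 point per library coloured by group and genes ordered by their mean over 14 libraries. Tlr4 lies highest among the receptors, between 7.31 and 14.2, and Cd14 spans 2.18 to 13.9.

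Cd14 was higher in each day 7 group than at day 0, and Tlr2 was higher with D5W. Cd14 (ENSMUSG00000051439, GRCm38 chromosome 18, 36725067 to 36726798, minus strand) had 3.83, 4.11 and 3.78 CPM in the day 0 libraries. It had 18.7, 16.2 and 22.6 CPM with D5W, 11.8, 24.1, 12.5 and 8.19 CPM with siNeg, and 21.2, 22.1, 3.96 and 11.99 CPM with siPD-L1. The 3 day 0 libraries lay close together, 10 of the 11 day 7 libraries lay above them, and siPD-L1 replicate 3 lay within their range. The log2 fold change was 2.30 ± 0.54 (standard error) for D5W against day 0, with an adjusted p of 0.0123 by edgeR's quasi-likelihood test with Benjamini-Hochberg adjustment over all tested genes. By the same edgeR test it was 1.86 ± 0.51 for siNeg (adjusted p = 0.0269) and 1.92 ± 0.51 for siPD-L1 (adjusted p = 0.0202). A change in the number of cells of a type and a change in RNA per cell cannot be told apart in these bulk samples.

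The Cd14 calls were not stable when libraries were left out. Without any 1 library, the log2 fold change ran from 2.16 to 2.40 with D5W and from 1.47 to 2.05 with siNeg. With siPD-L1 it ran from 1.66 to 2.24. DESeq2 and limma voom, with all libraries, also called Cd14 against day 0 in each day 7 group. For D5W, the adjusted p by edgeR rose to 0.0573 without day 0 replicate 1 and to 0.0572 without D5W replicate 3, where the log2 fold change was 2.16. For siNeg it rose to 0.101, 0.0791 and 0.0829 without day 0 replicate 1, 2 or 3, to 0.0537 without siNeg replicate 2 (log2 fold change 1.47), and to 0.0862 with no low-count filter. For siPD-L1 it rose to 0.0815, 0.0638 and 0.0643 without day 0 replicate 1, 2 or 3, to 0.067 with no low-count filter, to 0.0797 with only the 2 groups compared, and to 0.0632 (1.70) without D5W replicate 3 and siPD-L1 replicate 1.

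**Figure D2:**
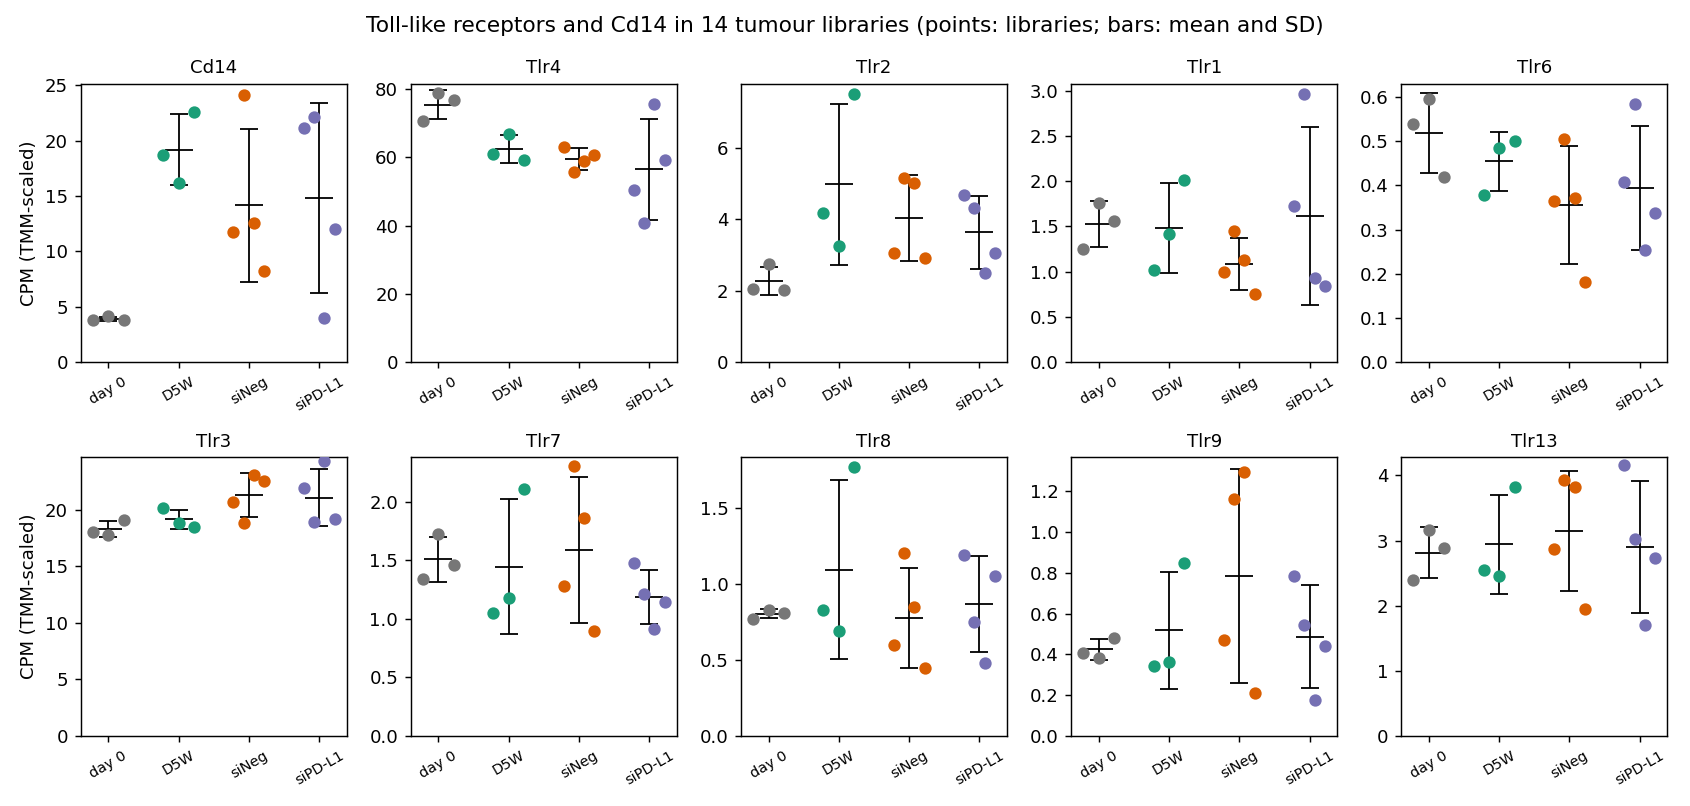
CPM of each gene in each library, with points for libraries and bars for the group mean and SD (n = 3, 3, 4 and 4), each panel starting at 0 with its own scale. The day 0 libraries of Cd14 sit between 3.78 and 4.11 CPM and 10 of the 11 day 7 libraries sit above them.

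Tlr2 (ENSMUSG00000027995, chromosome 3, 83836272 to 83841767, minus strand) had 2.06, 2.73 and 2.03 CPM at day 0. It had 4.16, 3.25 and 7.52 CPM with D5W, 3.06, 5.15, 5.03 and 2.92 CPM with siNeg, and 4.67, 4.31, 2.49 and 3.06 CPM with siPD-L1. All D5W and siNeg libraries lay above all day 0 libraries, and siPD-L1 replicate 3 again lay within the day 0 range. The log2 fold change was 1.13 ± 0.33 for D5W against day 0 (edgeR adjusted p = 0.0258). It was 0.83 ± 0.31 for siNeg (edgeR adjusted p = 0.0775) and 0.68 ± 0.31 for siPD-L1 (edgeR adjusted p = 0.130), neither of which passed. The D5W call was lost without D5W replicate 3 (0.71, adjusted p = 0.136), without day 0 replicate 1 (adjusted p = 0.0997) or 3 (adjusted p = 0.0838), and with only the 2 groups compared (adjusted p = 0.0532). The siNeg value passed with DESeq2 (adjusted p = 0.0288), limma voom (0.00954), only the 2 groups compared (0.0222), and without D5W replicate 3 and siPD-L1 replicate 1 (0.0257).

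Tlr1 and Tlr6, the partners of Tlr2, were not called in any comparison. Tlr1 (chromosome 5, 64924679 to 64933563) ran from 0.754 to 2.96 CPM over the 14 libraries and Tlr6 (chromosome 5, 64952031 to 64960097) from 0.181 to 0.597 CPM, both on the minus strand. Of the 50-base stretches of the longest Tlr1 transcript, 15.3% were also present in that of Tlr6, so reads from those stretches could be split or dropped and both levels are uncertain.

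The start regions of these 3 genes are shown because Tlr2 was called and its partners were not. They are the first 91 bases of the RefSeq promoter windows on GRCm38.p6, 250 to 160 bases before the RefSeq start, 5′ to 3′ on the minus strand, with matches to the kB consensus of NF-kB in capitals. The motif was chosen after the values were seen.
Tlr2, chr3:83841768-83841858: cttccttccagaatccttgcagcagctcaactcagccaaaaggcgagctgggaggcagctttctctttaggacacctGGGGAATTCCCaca
Tlr1, chr5:64933718-64933808: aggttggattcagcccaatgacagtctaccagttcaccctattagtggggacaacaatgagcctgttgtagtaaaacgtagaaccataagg
Tlr6, chr5:64960208-64960298: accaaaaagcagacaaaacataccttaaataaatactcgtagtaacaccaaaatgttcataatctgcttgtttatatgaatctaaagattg
The Tlr2 stretch held overlapping matches that share a palindrome, and the other stretches held none on either strand. Of all 32851 windows, 2.26% held a match in these 91 bases and 8.46% in the whole 300 bases. Of the 7 member genes with windows in the results, Tlr2 and Tlr3 held a match in the whole window. Tlr3, which was not called, also held a match in the first 91 bases of its window. Windows on the chromosome of Cd14 were left out of the member results, and none was available for Tlr4 or Tlr7. The matches therefore cannot be set beside the Cd14 calls. A match is a stretch of letters, not a site shown to be bound.

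Tlr4 (ENSMUSG00000039005, chromosome 4, 66827584 to 66930284, plus strand) had lower values at day 7 but was not called. It had 70.6, 78.9 and 76.8 CPM at day 0, 61.1, 67.0 and 59.4 CPM with D5W, 63.2, 55.6, 58.9 and 60.7 CPM with siNeg, and 50.4, 40.6, 75.6 and 59.4 CPM with siPD-L1. Of the day 7 libraries 10 lay below the day 0 range, and siPD-L1 replicate 3 lay within it, as for Cd14 and Tlr2. The log2 fold change against day 0 was -0.27 ± 0.16 for D5W (edgeR adjusted p = 0.221), -0.34 ± 0.14 for siNeg (0.118) and -0.42 ± 0.14 for siPD-L1 (0.0525). The siPD-L1 value passed without siPD-L1 replicate 3 (-0.59, adjusted p = 0.00388) and under 5 other settings, among them DESeq2 (-0.41, 0.028) and limma voom (-0.43, 0.00622). The D5W value passed with only the 2 groups compared (0.0476), and the siNeg value with only the 2 groups compared (0.00158), limma voom (0.0106) and GC and length trends removed (-0.53, 0.0257).

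Tlr3 (ENSMUSG00000031639, chromosome 8, 45395665 to 45411080, minus strand) varied least, from 17.8 to 24.3 CPM, with a coefficient of variation of 10.3% over the 14 libraries. Its largest log2 fold change against day 0 was 0.22 ± 0.10, with siNeg (edgeR adjusted p = 0.131). It shares 381 exon bases with the antisense gene Gm45542, and since the strand setting of the counting is not given, reads of the pair cannot be told apart.

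The endosomal receptors Tlr7, Tlr8, Tlr9 and Tlr13 were low and not called. Tlr7 (chromosome X, 167304929 to 167330558, minus strand) ran from 0.893 to 2.31 CPM and Tlr8 (chromosome X, 167242696 to 167264329, minus strand) from 0.447 to 1.77 CPM. Tlr9 (chromosome 9, 106222598 to 106226883, plus strand) ran from 0.177 to 1.30 CPM and Tlr13 (chromosome X, 106143204 to 106160493, plus strand) from 1.70 to 4.16 CPM. Tlr9 had the widest spread relative to its mean of the members, with a coefficient of variation of 59.7%. D5W replicate 3 had the highest Tlr8 and siNeg replicate 3 the highest Tlr9. Log2 fold changes of these 4 genes against day 0 lay between -0.35 for Tlr7 with siPD-L1 and 0.88 for Tlr9 with siNeg. Of the other Toll-like receptor genes, Tlr5 and Tlr12 were tested and not called, and Tlr11 had at most 0.0834 CPM.

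In all, 2 of the 10 genes were called in D5W against day 0, both higher, where 21.5% of all tested genes were called, 11.8% higher and 9.69% lower. In siNeg against day 0, 1 of 10 was called, where 18.4% of all genes were (10.5% higher and 7.91% lower), and in siPD-L1 against day 0, 1 of 10, where 21.9% were (11.5% higher and 10.4% lower). Counted in either direction these shares were at or below the background, while for D5W the 2 higher calls of 10 stand beside 11.8% of all genes. The median log2 fold change of the 10 genes was 0.066, 0.12 and 0.095, beside 0.0025, 0.0065 and 0.014 over all genes. Groups did not overlap for 3, 3 and 0 of the 10 genes, beside 43.8%, 41.7% and 35.0% of all genes.

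**Figure D3:**
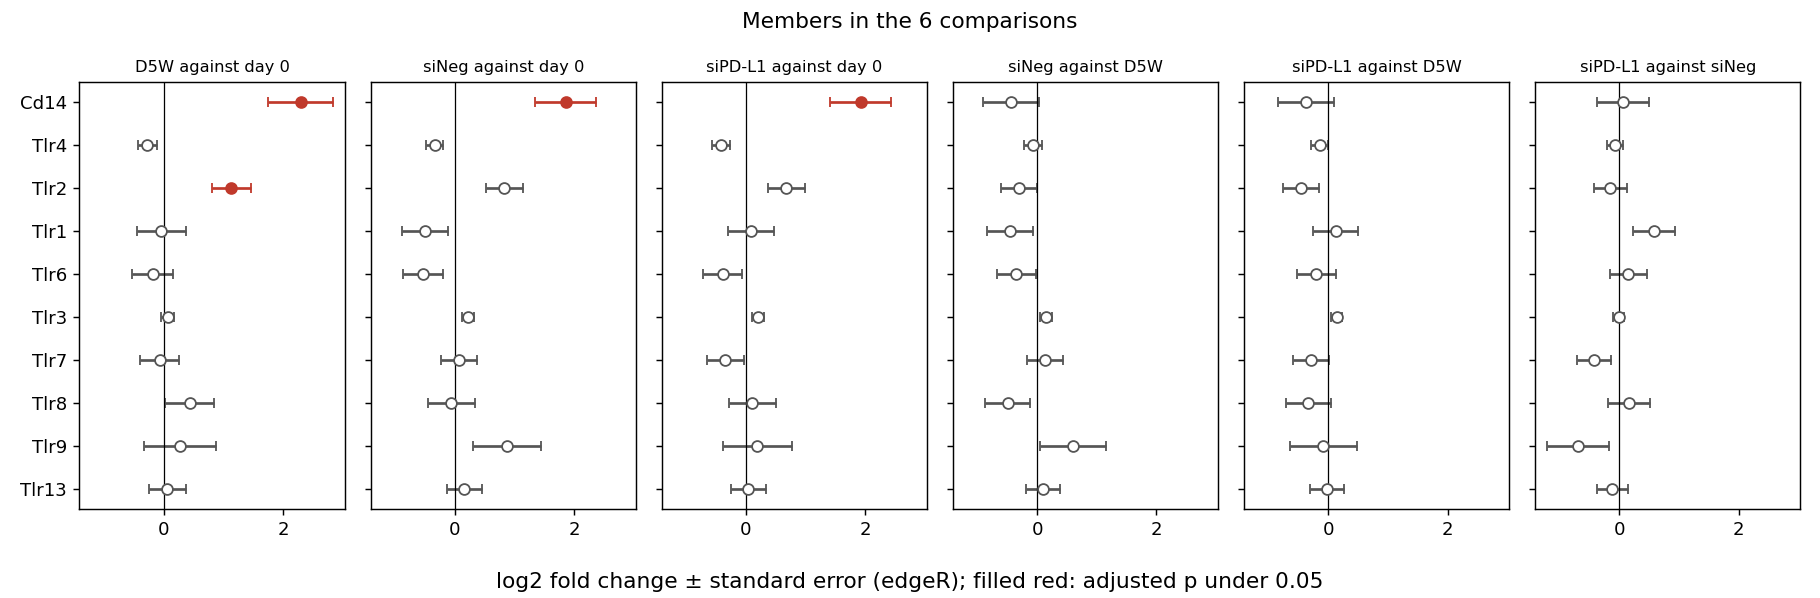
Log2 fold change with its standard error for each gene in the 6 comparisons, from edgeR; filled red points have an adjusted p under 0.05. Cd14 is filled in the 3 comparisons with day 0 and Tlr2 in D5W against day 0, and no point is filled in the comparisons between day 7 groups.

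Between the day 7 groups no member was called. In siNeg against D5W, siPD-L1 against D5W and siPD-L1 against siNeg, edgeR called 0 of 10, beside 0.105%, 0.0292% and 0% of all tested genes. The members also numbered 0 at an unadjusted p under 0.05, and 0 by DESeq2 and by limma voom. Groups did not overlap for 0 of the 10 genes in each of the 3 comparisons, beside 14.3%, 5.74% and 5.74% of all genes. For siPD-L1 against siNeg, groups that differ by the siRNA, Cd14 differed by 0.067 ± 0.44 on the log2 scale, with an approximate 95% interval of -0.79 to 0.93. For Tlr4 the interval was -0.34 to 0.19, for Tlr3 -0.19 to 0.16, and for Tlr9 -1.70 to 0.31. The intervals of Cd14 and Tlr9 were wider than those of Tlr3 and Tlr4, so a difference would have to be larger to be seen for Cd14 and Tlr9.

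Genes known to be switched on by these receptors were higher at day 7. Of 19 tested inducible targets, 13 were higher with D5W, 12 with siNeg and 11 with siPD-L1 against day 0, where 11.8%, 10.5% and 11.5% of all tested genes were higher. Their median log2 fold changes were 2.07, 2.08 and 2.13. With D5W, Nfkbiz, an NF-kB cofactor, rose from 10.5 to 44.0 CPM (log2 fold change 2.07 ± 0.22, edgeR adjusted p = 6.54e-05). The cytokine gene Il1a rose by 4.46 ± 0.54 and Tnf by 3.99 ± 0.55 on the log2 scale, and the neutrophil chemokine gene Cxcl1 by 5.42 ± 0.77. With siNeg 1 target was lower, Marco, a scavenger receptor named after its value was seen (-2.03 ± 0.59, edgeR adjusted p = 0.0284). These genes also respond to other signals. The list overlaps one that earlier work on these data described, so its counts are a description. Without day 0 replicate 3 the D5W count was 8, and without day 0 replicate 1, 2 or 3 the siNeg count, which includes Marco, was 6, 8 and 6 instead of 13. Without D5W replicate 3 and siPD-L1 replicate 1 the counts in either direction were 9, 13 and 12.

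Feedback inhibitors of the pathway were called higher for 6, 5 and 4 of 13 against day 0, beside 11.8%, 10.5% and 11.5% of all genes, and none was called lower, beside 9.69%, 7.91% and 10.4%. With D5W, Dusp1, a phosphatase of MAP kinases, rose by 0.96 ± 0.14 and Socs3, an inhibitor of cytokine signalling, by 1.70 ± 0.34 on the log2 scale. Tnfaip3, which encodes A20, rose by 1.43 ± 0.32 and Nfkbia, the inhibitor of NF-kB, by 1.15 ± 0.28. Without D5W replicate 3 the D5W count was 3, without any 1 day 0 library the siNeg count was 3, and without day 0 replicate 1 the siPD-L1 count was 2. Without D5W replicate 3 and siPD-L1 replicate 1 the counts were 4, 8 and 4. The list was chosen with earlier results of these data known, so these counts are a description and no excess is read from them.

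The parts of the pathway between receptor and target held calls in both directions. Of 17 adaptors and kinases, 3, 6 and 4 were higher against day 0, beside 11.8%, 10.5% and 11.5% of all genes, and 2, 1 and 2 were lower, beside 9.69%, 7.91% and 10.4%. With such small lists, these counts and those of the factors and co-receptors are given as a description, and nothing particular to them is read from the counts. The kinase gene Map3k8 rose by 1.17 ± 0.21 with D5W, while Tab1, a partner of the kinase TAK1, fell by 0.70 and Ticam1, the adaptor of Tlr3, fell by 0.59 on the log2 scale. Of 9 transcription factors, 1, 2 and 2 were higher and 1, 0 and 1 lower: Rel, an NF-kB subunit, rose by 1.53 ± 0.14 with D5W and Irf3 fell by 0.33. Of 13 co-receptors and trafficking genes none was higher, and 1, 2 and 0 were lower by edgeR. With siPD-L1 1 of these 13 had an unadjusted p under 0.05, and DESeq2 called 0 and limma voom 2. Ly96 was not called, at 8.44 ± 0.68 CPM at day 0 (SD, n = 3) and 7.71 ± 1.83 with D5W (SD, n = 3). Between the day 7 groups edgeR called 0 of the 73 tested genes of the pathway lists in each comparison. For siNeg against D5W, siPD-L1 against D5W and siPD-L1 against siNeg, an unadjusted p under 0.05 was found for 17, 10 and 8 of them, DESeq2 called 6, 1 and 1, and limma voom 1, 0 and 0. Over all tested genes the shares were 14.9%, 8.02% and 8.58% at the unadjusted p, 2.68%, 1.09% and 0.338% by DESeq2, and 1.81%, 0.128% and 0.0175% by limma voom.

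Of 14 macrophage markers 13 were tested, Itgam was listed at 0 in all 14 libraries, and against day 0 the edgeR calls were 0 with D5W (1 at an unadjusted p under 0.05, and 0 by DESeq2 and limma voom), 1 higher with siNeg (Ly6c2) and 1 lower with siPD-L1 (Lyz2), where 21.5%, 18.4% and 21.9% of all genes were called. Their summed level was 201 to 240 CPM at day 0, 168 to 275 with D5W, 116 to 278 with siNeg and 85.8 to 187 with siPD-L1. Cd14 minus the mean of the tested markers, on the log2 scale, was -1.02 ± 0.10 at day 0 (SD, n = 3), 1.20 ± 0.27 with D5W (n = 3), 0.82 ± 0.21 with siNeg (n = 4) and 0.89 ± 0.63 with siPD-L1 (n = 4). Each of the 11 day 7 libraries lay above each day 0 library, including siPD-L1 replicate 3 at 0.05. Two-sided exact permutation tests against day 0 gave p = 0.1, 0.0286 and 0.0571, and 0.2, 0.171 and 0.171 after Benjamini-Hochberg adjustment over 6 comparisons, so none passed. The smallest p these designs allow is 0.1 for D5W and 0.0286 for the other groups. Of 5 endothelial markers 4, 1 and 2 were higher against day 0, beside 11.8%, 10.5% and 11.5% of all genes, and their part in the Cd14 result was not tested.

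Within the 11 day 7 libraries most members varied with the macrophage markers. Pearson's r with the marker mean was 0.865 for Cd14 (permutation p = 0.00017, adjusted over 20 relations 0.00068; Spearman's rho 0.855, permutation p = 0.00163). It was 0.891 for Tlr2 (permutation p = 6e-05, adjusted 0.00045; rho 0.964, permutation p = 2e-05). For Tlr7, Tlr8, Tlr9 and Tlr13 r lay between 0.892 and 0.927, with adjusted permutation p from 0.00045 to 0.000886 and rho from 0.882 to 0.909. Without siNeg replicate 2 and siPD-L1 replicate 3, the libraries farthest from the median marker level, r was 0.772 for Cd14, 0.880 for Tlr2 and 0.834 to 0.885 for these 4 genes, and each still passed. Tlr6 passed with all libraries (r = 0.804, rho 0.700, adjusted permutation p = 0.0078) and not without those libraries (0.759, adjusted p = 0.0872), so its relation rests on them. Tlr1 (r = 0.618, adjusted permutation p = 0.0721), Tlr3 (-0.632, 0.0705) and Tlr4 (-0.494, 0.162) did not pass by Pearson's r. By Spearman's rho, Tlr1 (0.700, adjusted permutation p = 0.0421) and Tlr4 (-0.773, 0.0209) passed, and Tlr3 (-0.500, 0.198) did not. The libraries share their depth scaling and 3 treatment groups. The share of all tested genes with such relations was not computed, so the number of members that passed is only a description. With group means removed, r was 0.867 for Cd14 and 0.888 for Tlr2.

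**Figure D4:**
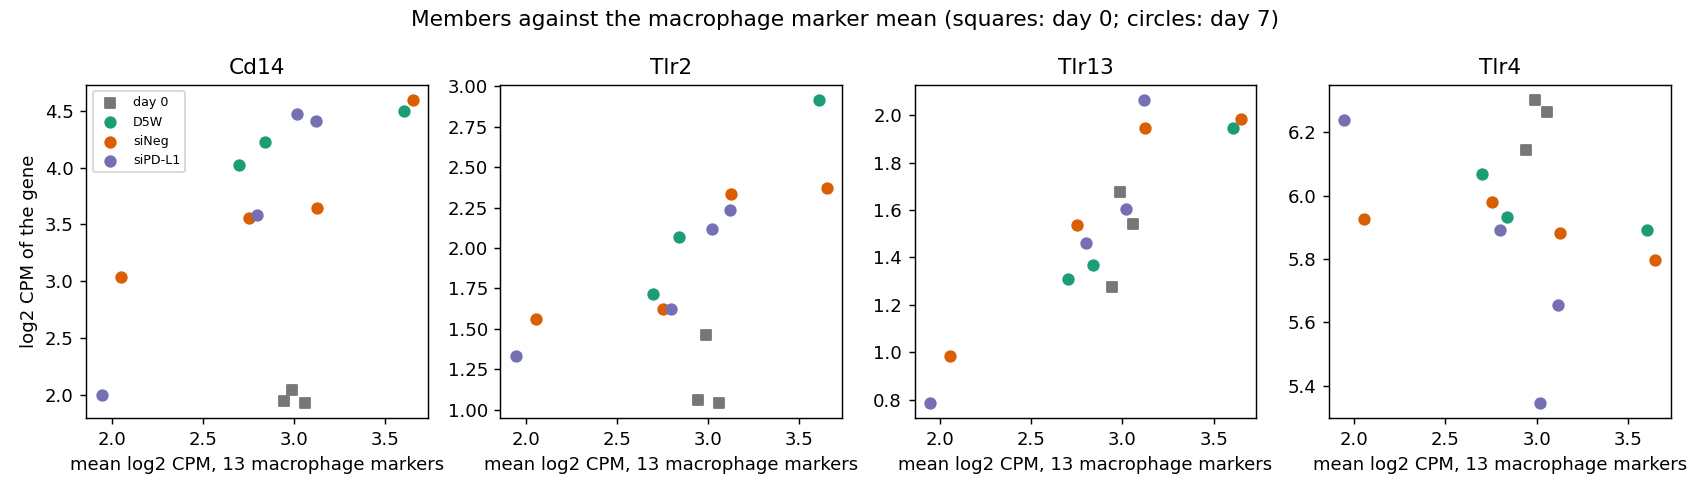
Log2 CPM of Cd14, Tlr2, Tlr13 and Tlr4 against the mean log2 CPM of 13 macrophage markers, with squares for day 0 libraries and circles for day 7. Day 7 circles rise together for Cd14, Tlr2 and Tlr13 (r = 0.865, 0.891 and 0.927), and the day 0 squares of Cd14 lie apart below them.

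Against the neutrophil markers only Tlr4 passed in the day 7 values as measured, with the opposite sign. Pearson's r with the mean of 6 tested neutrophil markers was -0.870 over the 11 day 7 libraries (permutation p = 9e-05, adjusted 0.00045; Spearman's rho -0.764, permutation p = 0.00837). It was -0.879 without siNeg replicate 2 and siPD-L1 replicate 2 (adjusted permutation p = 0.0223). With group means removed, r was -0.856 for Tlr4, and Tlr1 (0.758), Tlr3 (-0.625), Tlr6 (0.708), Tlr13 (0.629) and Cd14 (0.905) passed too, by permutations that take no account of the lost degrees of freedom. For Cd14 this was 0.656 as measured (adjusted permutation p = 0.06). The neutrophil markers were low, with sums of 3.30 to 14.6 CPM, and the defining gene Ly6g had at most 0.0257 CPM.

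The genes most like Cd14 over all 14 libraries, among 11130 protein-coding genes with a mean of at least 1 CPM, were Il1b (r = 0.974), Cxcl2 (0.957), Nfkbia (0.956), Tnfaip3 (0.953) and Zc3h12a (0.952). Within the 11 day 7 libraries these correlations were 0.952, 0.916, 0.929, 0.891 and 0.894. Il1b encodes a cytokine, Cxcl2 a neutrophil chemokine and Zc3h12a an RNase that cuts cytokine mRNAs. Il1b reached 33.5 CPM at most and, like Cd14, was low in the day 0 libraries and in siPD-L1 replicate 3. Those most like Tlr2 were Ifi207 (0.967), Nedd9 (0.965), Cd86 (0.960), Clec4e (0.953) and Gpr132 (0.952). Cd86 encodes a co-stimulatory ligand and Clec4e a C-type lectin receptor.

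**Figure D5:**
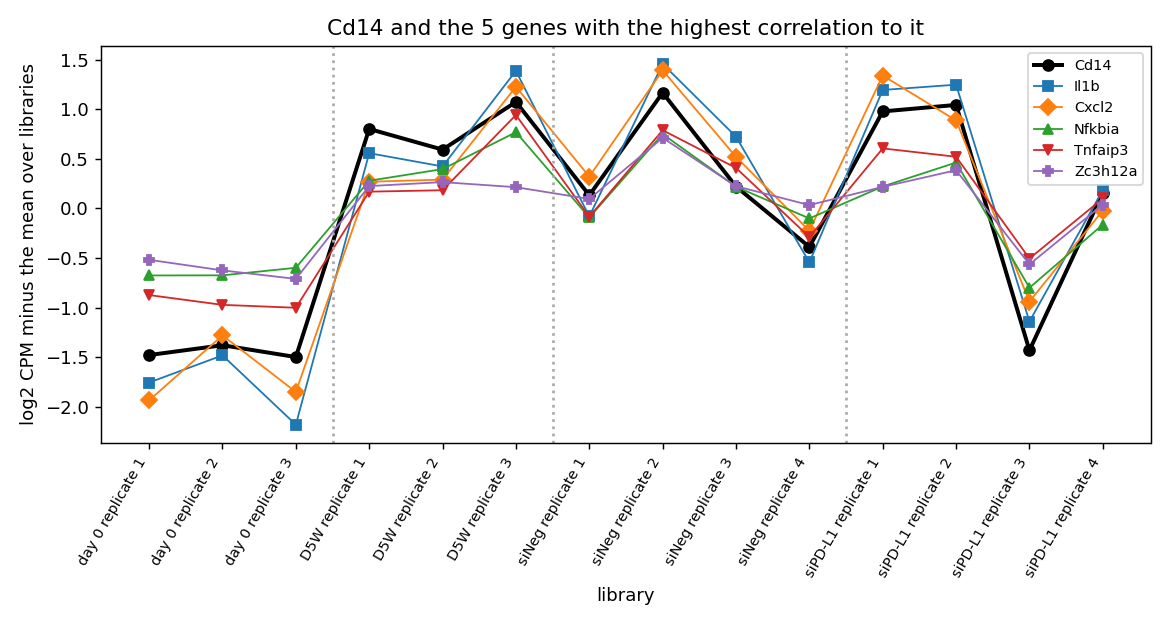
Log2 CPM minus the mean over libraries for Cd14 and the 5 genes with the highest correlation to it, by library, with dotted lines between groups. All 6 genes are low in the day 0 libraries and in siPD-L1 replicate 3.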

How the data were processed

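Per the labels, RNA came from an RNeasy extraction and was made into TruSeq stranded libraries. FastQC 0.11.3, STAR, featureCounts, edgeR and GRCm38 are named in the submitters' processing notes. Their other versions, annotation release and strand setting were not given in the sources used here. Values started from the raw counts the authors deposited, by Ensembl gene, for 14 libraries, and 0 columns were unmatched. GENCODE M21 (GRCm38) gave symbols for 37386 of 37409 genes.

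Counts were tested with edgeR 4.0.16 in R 4.3.3: TMM scaling, filterByExpr by group, 1 robust quasi-likelihood fit of all 14 libraries, and Benjamini-Hochberg adjustment at 0.05 over 17141 genes. The pipeline was tested on simulated data. Log2 CPM used a prior count of 2, and levels per kb used the union exon length. Standard errors were the log2 fold change over the square root of F. Correlations used 100000 permutations. Alternatives were other scalings and filters, DESeq2 1.42.0, limma 3.58.1 voom, fewer groups or libraries, a replicate block, and GC and length offsets.

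All members are named, up to 4 genes with the smallest p per pathway list, and the 5 genes most like Cd14 and Tlr2. The members and lists were chosen with earlier results of these data known.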

Additional observations from a re-analysis of the deposited data

How the results depend on the processing

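Of the 60 log2 fold changes of members, 28 changed sign under at least 1 setting, and 0 of these were called. Of the 1068 values under other settings, 949 kept their direction and side of the threshold. Depth left 13 to 43 counts per library for Tlr6 and 14 to 108 for Tlr9. Same-numbered libraries had a median r of -0.0141 over 19 pairs (6 above 0.1), beside -0.00186 over 54 other pairs (12 above 0.1). These values show no clear pairing but cannot exclude it, and the labels state none. With replicate number as a block the counts of members called were 2, 1 and 1 against day 0 and 0 otherwise. The cause of the changes below was not tested.

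For members called in D5W against day 0, the count was 0 without D5W replicate 3 and siPD-L1 replicate 1. For siNeg against day 0 it was 0 with no low-count filter, 2 with DESeq2, 4 with limma voom, 4 with only the 2 groups, 2 without those libraries and 2 with GC and length trends removed. For siPD-L1 against day 0 it was 0 with no low-count filter, 2 with CPM above 1 in 3 libraries, 2 with DESeq2, 2 with limma voom, 0 with only the 2 groups, 0 without those libraries, 2 without mitochondrial and ribosomal RNA-like genes and 2 with GC and length trends removed. Leaving out 1 library gave 0 to 2, 0 to 1 and 0 to 2. Of the list counts, whose alternatives were added after seeing the data, siNeg against day 0 gave 8 inducible targets and 3 feedback inhibitors with no low-count filter, and 11 and 10 inhibitors with limma voom and only the 2 groups.

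By longest transcript, the mean level per kb over all libraries was 4.57 for Tlr3 and 15.4 for Tlr4. The levels per kb by union exon length were given above as medians or ranges. With group means removed, which takes no account of lost degrees of freedom, r with the macrophage mean passed for Tlr1 (0.696), Tlr3 (-0.636) and Tlr4 (-0.637), and with the neutrophil mean for Tlr1 (0.758), Tlr3 (-0.625), Tlr6 (0.708), Tlr13 (0.629) and Cd14 (0.905). Tlr6 lost its macrophage relation (0.759) without the 2 libraries farthest from the median. Relative to Csf1r alone, Cd14 in siPD-L1 against siNeg was -0.0093.

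Signs changed as follows, in log2 fold change. With library totals only, D5W against day 0 gave Tlr1 0.056 and Tlr7 0.038. With GC and length trends removed, D5W against day 0 gave Tlr3 -0.14 and Tlr13 -0.12, siNeg against day 0 Tlr7 -0.094, siPD-L1 against day 0 Tlr1 -0.012, Tlr3 -0.033, Tlr8 -0.068 and Tlr13 -0.12, and siPD-L1 against D5W Tlr13 0.0028. With limma voom, D5W against day 0 gave Tlr8 -0.043, Tlr9 -0.22 and Tlr13 -0.083, siPD-L1 against day 0 Tlr1 -0.19, siNeg against D5W Tlr2 0.040, and siPD-L1 against D5W Tlr7 0.038, Tlr8 0.23, Tlr9 0.31 and Tlr13 0.16. With the replicate block, siPD-L1 against D5W gave Tlr9 0.30 and Tlr13 0.10. Without D5W replicate 3 and siPD-L1 replicate 1, D5W against day 0 gave Tlr8 -0.087, Tlr9 -0.27 and Tlr13 -0.17, and siPD-L1 against day 0 Tlr8 -0.085, Tlr9 -0.15 and Tlr13 -0.18. The same setting gave Tlr2 0.12 and Tlr8 0.031 in siNeg against D5W, Tlr8 0.0015 and Tlr9 0.12 in siPD-L1 against D5W, and Tlr8 -0.029 and Cd14 -0.16 in siPD-L1 against siNeg.

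Leaving out 1 library at a time, D5W against day 0 ranged from -0.32 to 0.17 for Tlr1, -0.43 to 0.12 for Tlr7, -0.087 to 0.68 for Tlr8, -0.27 to 0.49 for Tlr9 and -0.17 to 0.18 for Tlr13. For siNeg against day 0 the ranges were -0.16 to 0.27 for Tlr7 and -0.34 to 0.13 for Tlr8. For siPD-L1 against day 0 they were -0.39 to 0.30 for Tlr1, -0.093 to 0.31 for Tlr8, -0.15 to 0.47 for Tlr9 and -0.19 to 0.23 for Tlr13. For siNeg against D5W they were -0.53 to 0.12 for Tlr2, -0.098 to 0.51 for Tlr7, -0.78 to 0.030 for Tlr8 and -0.026 to 0.33 for Tlr13. For siPD-L1 against D5W they were -0.35 to 0.41 for Tlr1, -0.46 to 0.087 for Tlr7, -0.58 to 0.19 for Tlr8, -0.42 to 0.46 for Tlr9 and -0.24 to 0.21 for Tlr13. For siPD-L1 against siNeg they were -0.19 to 0.45 for Cd14, -0.089 to 0.035 for Tlr3, -0.25 to 0.052 for Tlr4, -0.10 to 0.36 for Tlr6, -0.025 to 0.45 for Tlr8 and -0.33 to 0.069 for Tlr13, and -0.11 to 0.36 for Cd14 relative to the macrophage markers.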
